A study of Mus musculus with 9 samples.

Results

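The Dp1Tyb mouse carries an extra copy of the stretch of chromosome 16 from Lipi to Zbtb21, a region orthologous to much of human chromosome 21, and 7 genes of that stretch code for proteins that package, read or modify chromatin or belong to a chromatin-linked enzyme family. The genes are Hmgn1, Brwd1, Chaf1b, Setd4, Morc3, Mis18a and N6amt1. They were chosen by function and position, as 7 of the 43629 genes in the count table. RNA-seq was carried out on mouse embryonic fibroblasts (MEFs), primary cells grown out of E14.5 embryos and passaged in culture, from 4 WT and 5 Dp1Tyb embryos. The labels give the strain of both genotypes as C57BL/6J.129P2 and the genotype of Dp1Tyb as Dp(16Lipi-Zbtb21)1TybEmcf, and by the study's methods the mice had been backcrossed to C57BL/6JNimr and the embryos were littermates. Each culture came from a separate embryo, so the spread within a genotype holds the differences between embryos and between their cultures. The labels used here give neither the sex of the embryos nor the passage number, though the study's methods state the number of passages.

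DNA in the nucleus is wound around histone octamers to form nucleosomes, and chromatin proteins set how tightly these are packed, which chemical marks they carry and how they are rebuilt after replication. Hmgn1 binds nucleosomes and competes there with linker histone H1. Brwd1 reads acetylated histones through its bromodomains, and Morc3 is an ATPase with a zinc finger that binds methylated histone H3 and is found in PML nuclear bodies. Chaf1b is the middle subunit of CAF-1, the chaperone that lays histones H3 and H4 on newly copied DNA. Mis18a belongs to the complex that prepares centromeres to receive CENP-A, the histone H3 variant that marks them. Setd4 is a SET-domain methyltransferase. N6amt1 works with its activator Trmt112 as a methyltransferase whose established substrate is the translation release factor Etf1, and a role on DNA has been debated.

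Total counts were between 24804539 and 30009361 per culture. By the sample descriptions, replicate 1 of each genotype forms a set of its own, set 1, while the remaining 3 WT and 4 Dp1Tyb cultures form set 2, and what separates the sets is not stated. The summed RPKM (counts scaled to exon length and to the total count of the culture) of 12 fibroblast markers was 7048 to 7849 in WT and 6348 to 8350 in Dp1Tyb cultures, and all 12 passed the filter on low counts. Dp1Tyb replicate 2 stood apart, with the lowest fibroblast sum, the lowest macrophage sum and the highest skeletal muscle sum (140 RPKM over 7 markers, against 1.47 to 38.5 in WT). Myf5 was at 0 in every culture, the only muscle marker of the 7 for which this held, and 2 of the 7 passed the filter on low counts. Macrophage markers summed to 49.4 to 183 RPKM in WT and 12.8 to 269 in Dp1Tyb cultures. The 6 neural crest and Schwann cell markers summed to 7.85 to 17.2 RPKM in WT and 2.22 to 7.43 in Dp1Tyb cultures. The 5 of them that passed the filter were all lower at an unadjusted p below 0.05 with edgeR. In either direction 3.13% of all genes tested passed that threshold. At the adjusted threshold edgeR called 0 of the 5, against 0.165% of all genes tested, and DESeq2 called 4. The share of all genes that DESeq2 called lower was not counted. The part of these other cells in the values below was not tested, and in bulk RNA fewer cells of a type and less RNA per cell cannot be told apart.

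The promoters of these genes are shown first, as the regulatory sequence that is copied with each gene. RefSeq (GRCm38.p6) gave 300 bases around the start of each of the 7 genes, and 6 motifs were searched on both strands. These RefSeq starts can differ from the gene bounds given below. The Setd4 window, chr16:93603766-93604065 on the minus strand, lies almost wholly inside bounds that end at 93604063. Its motif matches are therefore not of the sequence upstream of that bound. The GC box (GGGCGG) was in 6 of the 7 promoters, against 35.7% of all 32851 promoters and 64.3% of the 10854 belonging to genes tested here. The CCAAT box (CCAAT) was in 3 of 7, against 37.4% of all promoters and 38.5% of those of tested genes. The core of the NRF1 motif (GCATGCGC) was in the promoters of Morc3, Mis18a and N6amt1, and 2.71% of all promoters and 5.26% of those of tested genes held it. The ETS motif (CCGGAAG) was in Chaf1b and Setd4, against 8.86% of all promoters and 17.5% of those of tested genes. An E2F motif (TTTCCCGC, TTTCGCGC, TTTGCCGC or TTTGGCGC) was in Mis18a, against 2.26% of all promoters and 4.03% of those of tested genes. The CHR motif (TTTGAA) was in 0 of the 7, against 17.9% of all promoters and 11.8% of those of tested genes. No match of one motif overlapped a match of another in these promoters. A match describes the letters of the window and is not a measured binding site.
The 3 windows with the NRF1 core and the Hmgn1 window with both of its CCAAT boxes are printed 5′ to 3′ on the gene's strand, with only the matches of that NRF1 core or CCAAT box in capitals, while GC boxes in these windows stay in lower case:
Morc3, chr16:93832051-93832120, plus strand: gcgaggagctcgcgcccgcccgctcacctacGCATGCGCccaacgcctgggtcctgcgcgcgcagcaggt
Mis18a, chr16:90727352-90727421, minus strand: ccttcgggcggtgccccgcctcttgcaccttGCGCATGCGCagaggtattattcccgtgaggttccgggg
N6amt1, chr16:87354140-87354209, plus strand: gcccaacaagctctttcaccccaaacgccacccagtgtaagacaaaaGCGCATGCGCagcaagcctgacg
Hmgn1, chr16:96127735-96127814, minus strand: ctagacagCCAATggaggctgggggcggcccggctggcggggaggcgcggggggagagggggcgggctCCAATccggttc
In Mis18a and N6amt1 the capitals hold the 8-letter core read on each strand, sharing letters. The GC content of the 300-base promoters was between 41% for N6amt1 and 80% for Brwd1, with a median of 61% over the promoters of tested genes.

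The first question was whether each gene was expressed in proportion to its copies. All 7 passed the filter on low counts, as did 82 other genes of the duplication. Hmgn1 and Morc3 were upregulated in Dp1Tyb MEFs in edgeR's quasi-likelihood test at a Benjamini-Hochberg adjusted p below 0.05, so 2 of the 7 were called, where 0.165% of all 14567 genes tested and 24.4% of the other 82 genes of the duplication were called higher. Outside the duplication 0.0138% of tested genes were called in either direction. In 6 of the 7 genes, all but Brwd1, the lowest Dp1Tyb culture exceeded the highest WT culture. The same held for 0.686% of all genes tested, 0.373% of those outside the duplication and 48.8% of the other genes of the duplication. Of the 35 values in Dp1Tyb cultures, 34 were above every WT value of their gene. The median fold over the 7 was 1.49, against 1.51 for the other genes of the duplication and a median log2 fold change of 0.0020 outside it. All 7 had an unadjusted p below 0.05, which 1.36% of all genes tested had with a higher level in Dp1Tyb. All 7 confidence intervals of the fold lay above 1 and all 7 held 1.5, the ratio of 3 copies to 2. DESeq2 called 5 of the 7, adding Setd4, Mis18a and N6amt1, where it called 0.293% of all genes higher (0.271% with its prior). In edgeR on set 2 alone 0 of the 7 were called, and 0.00686% of all genes. The replicate numbers were also fitted as a block, which left out Dp1Tyb replicate 5, as no WT culture has that number. With this block, 4 of the 7 and 0.431% of all genes were called higher in DESeq2 and 0 of either in edgeR. Within set 2 the genotypes did not overlap for any of the 7 genes, Dp1Tyb being higher, and the Dp1Tyb culture of set 1 was above the WT culture of set 1 for all 7.

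**Figure D1:**
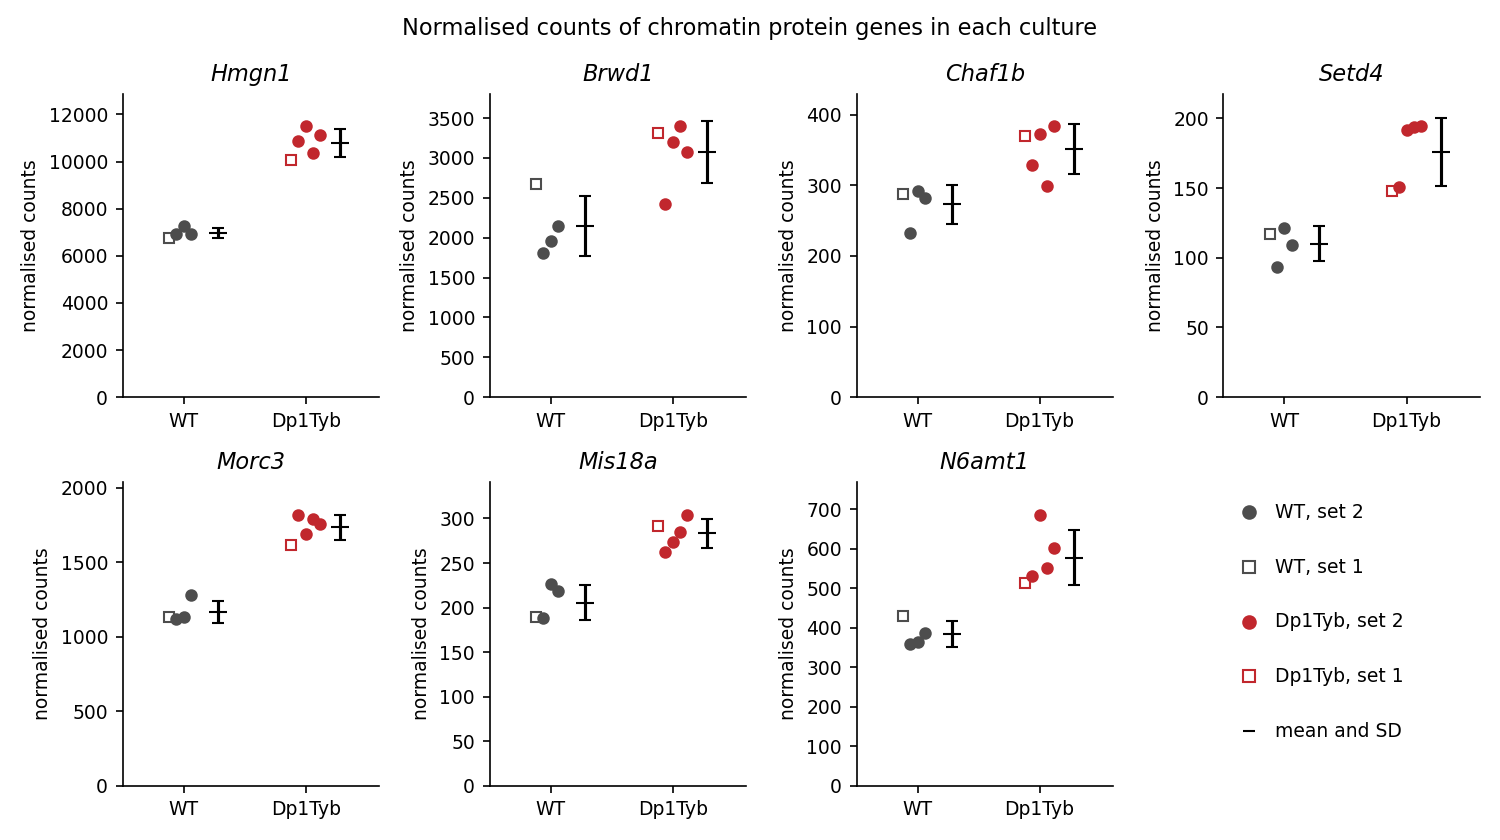
Normalised counts (TMM-scaled, vertical axes from 0) of the 7 genes, 1 panel per gene, in each WT and Dp1Tyb culture, with circles for set 2, open squares for set 1 and bars for the mean and SD of each genotype. The genotypes overlap for Brwd1 alone, where the open WT square at 2676 lies above the lowest Dp1Tyb circle at 2419.

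Hmgn1 (ENSMUSG00000040681) lies on the minus strand at chr16:96120618-96127729. Its normalised counts, scaled by TMM, were 6776, 6908, 7258 and 6945 in WT cultures and 10050, 10871, 11507, 10357 and 11146 in Dp1Tyb cultures. The genotypes were far apart, and the lowest Dp1Tyb culture was above every WT culture. The mean rose from 6972 ± 204 (SD, n = 4) to 10786 ± 588 (SD, n = 5), a log2 fold change of 0.63 (SE 0.069) with a 95% interval of the fold from 1.39 to 1.72 and an adjusted p of 0.0102 by edgeR. Within set 2 the difference in mean log2 level was 0.64 and between the set 1 cultures it was 0.57. The adjusted p was above 0.05 when WT replicate 2 (0.063), WT replicate 3 (0.068), WT replicate 4 (0.052) or Dp1Tyb replicate 5 (0.056) was left out, with log2 fold changes from 0.61 to 0.66 over all 9 omissions. With set 2 alone it was 0.086. Hmgn1 shared 4.33% of its 50-base words with 5 pseudogenes of other loci, and none of those held more than 18 counts in a culture. Reads aligned to several places had been discarded, so these low counts do not show how many reads were shared.

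Brwd1 (ENSMUSG00000022914) is the proximal neighbour of Hmgn1, on the same strand at chr16:95992092-96082526. Its normalised counts were 2676, 1802, 1957 and 2149 in WT cultures and 3315, 2419, 3193, 3399 and 3068 in Dp1Tyb cultures. WT replicate 1 was the highest WT culture and lay above Dp1Tyb replicate 2, so the genotypes overlapped, but only through a WT culture of set 1 and a Dp1Tyb culture of set 2. The means were 2146 ± 380 (SD, n = 4) and 3079 ± 390 (SD, n = 5), with a log2 fold change of 0.52 (SE 0.14) that missed the threshold (adjusted p = 0.611 by edgeR, interval of the fold 1.16 to 1.77). An exact permutation test on the counts, two-sided, gave p = 0.0238 over 9 cultures and p = 0.0571 within set 2. Over all 9 cultures the smallest p this test can give was 0.0079, and within set 2 it was 0.0286.

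Morc3 (ENSMUSG00000039456, chr16:93832121-93876073, plus strand) gave normalised counts of 1135, 1116, 1131 and 1276 in WT cultures and 1614, 1819, 1691, 1788 and 1754 in Dp1Tyb cultures. WT replicate 4 was the highest of its genotype and was still below every Dp1Tyb culture. The mean rose from 1165 ± 74.7 (SD, n = 4) to 1733 ± 81.8 (SD, n = 5), a log2 fold change of 0.57 (SE 0.066) with an interval of the fold from 1.34 to 1.65 and an adjusted p of 0.0120 by edgeR. The difference in mean log2 level was 0.59 in set 2 and 0.51 in set 1. The adjusted p was above 0.05 when WT replicate 2 (0.066), WT replicate 3 (0.082), Dp1Tyb replicate 4 (0.052) or Dp1Tyb replicate 5 (0.070) was left out, with log2 fold changes from 0.55 to 0.63 over all 9 omissions. With set 2 alone it was 0.101.

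Chaf1b (ENSMUSG00000022945) starts 7827 bases beyond the end of Morc3, on the same strand at chr16:93883901-93906115. Its normalised counts were 287, 232, 291 and 282 in WT cultures and 370, 329, 373, 300 and 384 in Dp1Tyb cultures. Dp1Tyb replicate 4 was the lowest of its genotype, at 1.03 times the highest WT culture, and the genotypes did not overlap. The means were 273 ± 27.7 (SD, n = 4) and 351 ± 35.5 (SD, n = 5). The log2 fold change of 0.36 (SE 0.11, interval of the fold 1.08 to 1.53) was the lowest of the 7 genes and ranked 75th of the 89 tested genes of the duplication, and the adjusted p by edgeR was 0.98. An exact permutation test on the counts, two-sided, gave p = 0.0159, and p = 0.0571 within set 2.

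Mis18a (ENSMUSG00000022978, chr16:90719312-90727404, minus strand) gave normalised counts of 189, 189, 226 and 218 in WT cultures and 291, 262, 274, 285 and 304 in Dp1Tyb cultures. All 5 Dp1Tyb cultures were above the 4 WT cultures. The means were 206 ± 19.4 (SD, n = 4) and 283 ± 16.3 (SD, n = 5), with a log2 fold change of 0.46 (SE 0.10, interval of the fold 1.18 to 1.61) and an adjusted p of 0.312 by edgeR. The exact permutation test on the counts, two-sided, gave its smallest possible p, 0.0079, and within set 2 also its smallest, 0.0286.

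Setd4 (ENSMUSG00000022948, chr16:93583457-93604063, minus strand) was the least abundant of the 7, with normalised counts of 117, 93.3, 121 and 109 in WT cultures and 148, 150.4, 192, 194 and 194 in Dp1Tyb cultures. Dp1Tyb replicates 1 and 2 were lower than the other 3 and all 5 were above the WT cultures. The means were 110.2 ± 12.3 (SD, n = 4) and 176 ± 24.3 (SD, n = 5). The log2 fold change of 0.67 (SE 0.15, interval of the fold 1.27 to 2.00) was the highest of the 7, with an adjusted p of 0.313 by edgeR. The exact permutation test on the counts, two-sided, gave p = 0.0079 over 9 cultures and p = 0.0571 within set 2, and the difference in mean log2 level was 0.75 in set 2 and 0.33 in set 1. Setd4 shared 3.19% of its 50-base words with other genes, 197 in number, of which 92 had counts, up to 8134 in a culture. Brwd1 shared 0.528% of its words, with genes of up to 23346 counts. N6amt1 shared 0.453%, with genes of up to 14519 counts, and Chaf1b 0.624%, while Morc3 and Mis18a shared 0.

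N6amt1 (ENSMUSG00000044442, chr16:87354185-87368742, plus strand) gave normalised counts of 430.3, 359, 365 and 386 in WT cultures and 513, 531, 687, 552 and 603 in Dp1Tyb cultures. WT replicate 1 and Dp1Tyb replicate 1, the 2 cultures of set 1, were the highest WT and the lowest Dp1Tyb culture. The means were 385 ± 32.5 (SD, n = 4) and 577 ± 69.8 (SD, n = 5), with a log2 fold change of 0.58 (SE 0.11, interval of the fold 1.27 to 1.77) and an adjusted p of 0.134 by edgeR. The exact permutation test on the counts, two-sided, gave p = 0.0079, and p = 0.0286 within set 2. The difference in mean log2 level was 0.67 in set 2 and 0.25 in set 1.

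**Figure D2:**
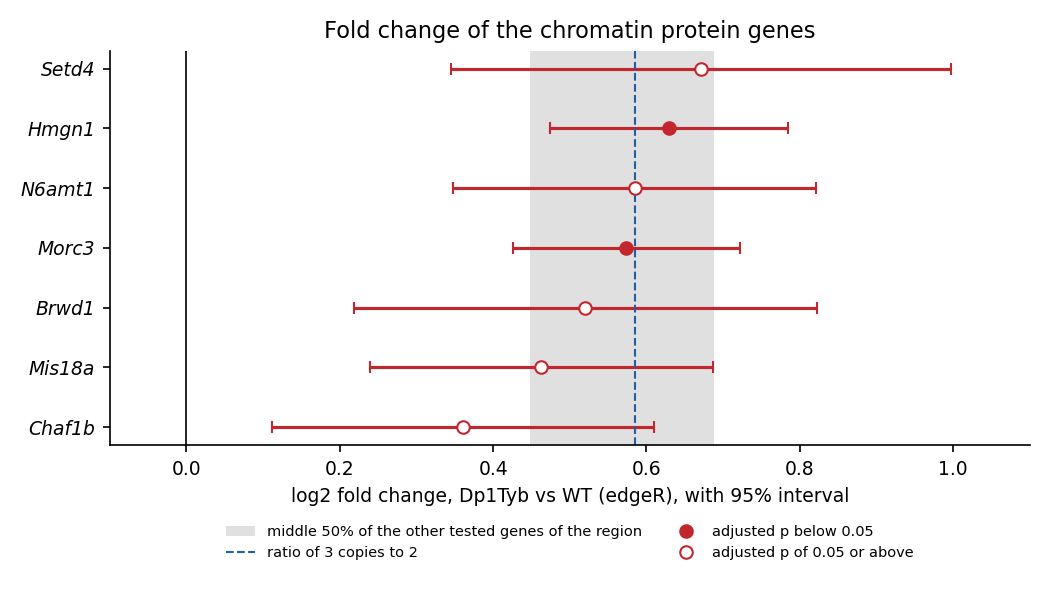
Log2 fold change (Dp1Tyb over WT) of the 7 genes with its 95% interval from edgeR, filled where the adjusted p was below 0.05, with the middle 50% of the other tested genes of the duplication shaded and a dashed line at the ratio of 3 copies to 2. The 7 estimates run from 0.36 for Chaf1b to 0.67 for Setd4, every interval is above 0 and every interval holds 0.58.

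The next comparison asked whether the 7 genes differed among themselves in their response. The log2 ratio of each pair of genes was taken within each culture, which removes library scaling, and compared between genotypes for all 21 pairs. The exact permutation test, two-sided, fell below 0.05 for 1 pair, Hmgn1 to Chaf1b, whose ratio was higher in Dp1Tyb by 0.27 on the log2 scale (95% interval 0.04 to 0.50, p = 0.0476, and 0.5 after Benjamini-Hochberg adjustment over the pairs). Chaf1b to Setd4 was next, with a difference of -0.31 (interval -0.62 to 0.003, p = 0.0556 by the same exact test). For Morc3 to N6amt1 the difference was -0.006, with an interval from -0.27 to 0.26. After adjustment over the pairs 0 of 21 were below 0.05. Over all cultures the smallest p this exact test can give was 0.0079, so 1 differing pair alone could not pass that adjustment. The count of 0 therefore does not show that the 7 genes responded alike.

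Levels between genes were compared per length, as RPKM with the summed exon length. Hmgn1 stood far above the rest, at 83.2 ± 2.76 RPKM in WT (SD, n = 4) and 124.9 ± 6.70 in Dp1Tyb cultures (SD, n = 5), and was above 96.2% of tested genes in WT. Morc3 followed at 8.25 ± 0.507 RPKM in WT and 11.9 ± 0.282 in Dp1Tyb, and Brwd1 at 4.09 ± 0.851 and 5.67 ± 0.787. Mis18a was at 2.76 ± 0.247 RPKM in WT and 3.69 ± 0.262 in Dp1Tyb, N6amt1 at 2.42 ± 0.275 and 3.51 ± 0.437, and Chaf1b at 2.25 ± 0.269 and 2.80 ± 0.330. In WT cultures the ranges of Mis18a and N6amt1 overlapped, as did those of N6amt1 and Chaf1b, so the order of these neighbours is not resolved. Setd4 was lowest, at 0.789 ± 0.104 RPKM in WT and 1.22 ± 0.163 in Dp1Tyb, above 19.1% of tested genes in WT. With the length of the longest transcript in place of the summed exons, Mis18a moved from the fourth to the sixth place at 2.96 RPKM in WT, below N6amt1 (4.27) and Chaf1b (3.72), while Hmgn1 (123), Morc3 (10.7), Brwd1 (8.42) and Setd4 (1.62) kept theirs.

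**Figure D3:**
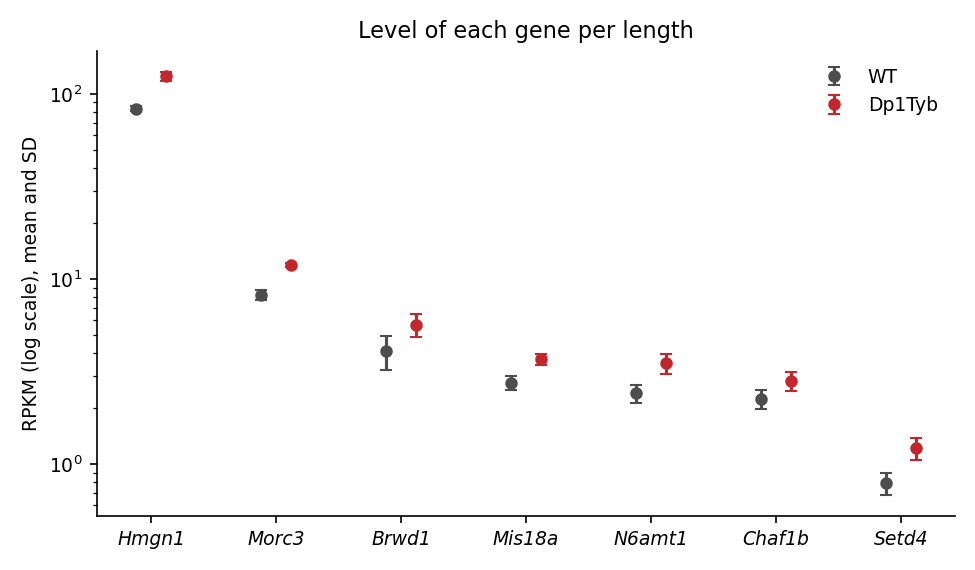
RPKM of the 7 genes on a log axis, as the mean and SD over 4 WT and 5 Dp1Tyb cultures, in the order of the WT mean. Hmgn1 at 83.2 RPKM in WT is separate from the other 6, which lie between 0.789 and 8.25.

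Partners and paralogs that lie outside the duplication were then set beside the 7 genes, with 117 chromatin genes in 7 lists. Of the 113 that passed the filter, 0 were called by edgeR in either direction, with a lowest adjusted p of 0.568. At an unadjusted p below 0.05 there were 4, of which 1 was higher in Dp1Tyb (3.54%, against 3.13% of all genes tested), and DESeq2 called 0 of them with or without its prior. Their median log2 fold change was -0.025, beside 0.0027 for all genes tested. The medians were -0.08 for 23 histone chaperones, -0.12 for 19 centromere genes, -0.02 for 14 HMG and linker histone genes, 0.07 for 5 genes of the BRWD family and its ligase, 0.04 for 10 genes of the MORC family and PML bodies, -0.02 for 33 SET-domain genes and 0.06 for 9 genes around Trmt112. Those 4 are named here after their values were seen. Hist1h1b, a linker histone and the largest of the 113 in size of change, had 12.6 ± 2.37 normalised counts in WT (SD, n = 4) and 23.7 ± 8.16 in Dp1Tyb cultures (SD, n = 5), with a log2 fold change of 0.91 and an adjusted p of 1 by edgeR, and Dp1Tyb replicate 1 was below every WT culture. The histone chaperone genes Anp32e and Tonsl had log2 fold changes of -0.24 and -0.15, also with an adjusted p of 1 by edgeR. Cenph, a gene of the inner kinetochore, had a mean normalised count of 143 ± 14.8 in WT (SD, n = 4) and 99.0 ± 10.9 in Dp1Tyb cultures (SD, n = 5), with a log2 fold change of -0.53 and an adjusted p of 0.568 by edgeR. Every Dp1Tyb culture (88.6 to 113.9) was below every WT culture (132.9 to 165.0) for Cenph. The genotypes also did not overlap for Anp32e and for Hmgb3 of the HMG list, again with Dp1Tyb lower. The share of all genes with this separation downwards was not taken.

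**Figure D4:**
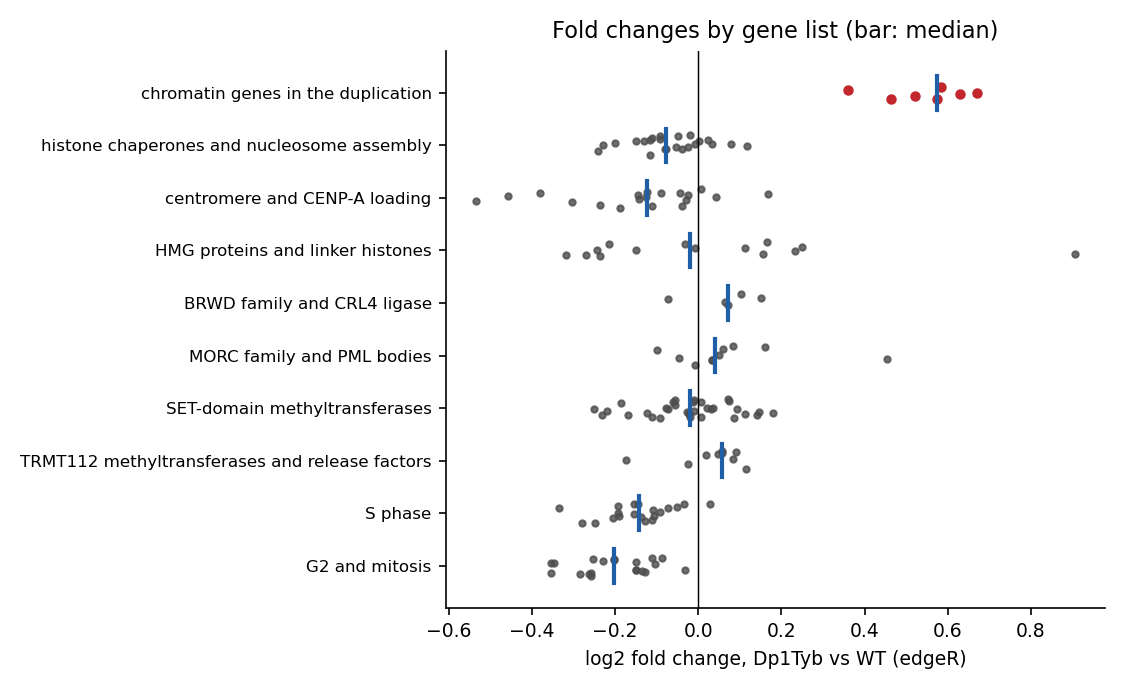
Log2 fold change (Dp1Tyb over WT) of each tested gene in the chromatin and cell cycle lists, with the median of each list, beside the 7 genes of the duplication. The 7 genes lie between 0.36 and 0.67, while the list medians lie between -0.20 and 0.07.

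The genes that work with Chaf1b in replication had log2 fold changes between -0.23 and -0.05. Chaf1a, the large subunit of CAF-1, had a mean normalised count of 682 in WT and 639 in Dp1Tyb (log2 fold change -0.09), and Rbbp4, the histone-binding small subunit, 4759 and 4598 (-0.05). The histone donors Asf1a and Asf1b had log2 fold changes of -0.09 and -0.23, and Pcna, the sliding clamp that recruits CAF-1 to forks, -0.12. None of these passed the test (adjusted p = 1 by edgeR for each). The ratio of Chaf1b to Chaf1a in RPKM was 0.761 ± 0.101 in WT (SD, n = 4) and 1.05 ± 0.126 in Dp1Tyb (SD, n = 5), with no overlap (exact permutation test, two-sided, p = 0.0159). Over all genes tested, 1.23% had a ratio to Chaf1a that was higher in all 5 Dp1Tyb cultures than in any WT culture, and this share is given as the background of each ratio below. The ratio of Chaf1b to Rbbp4 went from 0.107 in WT to 0.143 in Dp1Tyb cultures, without overlap (p = 0.0079 by the same exact test, background 0.934%).

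Among the genes that load CENP-A with Mis18a, Oip5, another part of the Mis18 complex, had a mean normalised count of 60.8 in WT and 49.3 in Dp1Tyb cultures, with a log2 fold change of -0.30. Hjurp, the CENP-A chaperone, was at -0.11 and Cenpa itself at -0.23, and each of the 3 had an adjusted p of 1 by edgeR. The RPKM ratio of Mis18a to Oip5 was 2.12 ± 0.240 in WT (SD, n = 4) and 3.62 ± 0.417 in Dp1Tyb (SD, n = 5), p = 0.0079 in the exact permutation test, two-sided, with a background of 1.55% of genes. The ratio did not overlap between genotypes.

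Of the nucleosome-binding paralogs of Hmgn1, Hmgn2 had a mean normalised count of 2498 in WT and 2109 in Dp1Tyb (log2 fold change -0.24), Hmgn3 979 and 842 (-0.22) and Hmgn5 249 and 244 (-0.03), all with an adjusted p of 1 by edgeR. Hmgn1 to Hmgn2 in RPKM was 2.84 ± 0.845 in WT (SD, n = 4) and 5.09 ± 1.31 in Dp1Tyb (SD, n = 5), and Hmgn1 to Hmgn3 was 4.17 ± 0.483 and 7.51 ± 0.889, both without overlap (exact permutation test, two-sided, p = 0.0079 each, background 0.638% and 1.28%). Hmgn1 to Hmgn5 overlapped between genotypes (p = 0.0556 by the same exact test, background 0.302%), with Dp1Tyb replicate 2 the culture that was low in this ratio and highest in Hmgn5.

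Brwd1 was read against Brwd3 and Phip, the other members of its family. Brwd3 had a mean normalised count of 456 in WT and 479 in Dp1Tyb (log2 fold change 0.07) and Phip 1614 and 1536 (-0.07). The RPKM ratio of Brwd1 to Phip was 2.18 ± 0.216 in WT (SD, n = 4) and 3.31 ± 0.254 in Dp1Tyb (SD, n = 5), and that of Brwd1 to Brwd3 was 2.94 ± 0.134 and 4.05 ± 0.554. Neither ratio overlapped between genotypes, although the normalised counts of Brwd1 did. The exact permutation test, two-sided, gave p = 0.0079 for Phip and p = 0.0159 for Brwd3, with backgrounds of 0.645% and 0.309%.

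For Morc3 the paralogs were Morc2a (1983 normalised counts in WT, 1972 in Dp1Tyb, log2 fold change -0.01) and Morc4 (573 and 535, -0.10), with an adjusted p of 1 by edgeR for each. The RPKM ratio of Morc3 to Morc2a was 0.701 ± 0.0908 in WT (SD, n = 4) and 1.04 ± 0.0701 in Dp1Tyb (SD, n = 5), so Morc3 was below Morc2a in WT and about level with it in Dp1Tyb cultures. Morc3 to Morc4 was 2.34 in WT and 3.64 in Dp1Tyb, and both ratios were without overlap (exact permutation test, two-sided, p = 0.0079 each, background 0.577% and 0.556%).

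Trmt112, the activating partner of N6amt1, had a mean normalised count of 571 in WT and 506 in Dp1Tyb (log2 fold change -0.17, adjusted p = 1 by edgeR), and the RPKM ratio of N6amt1 to Trmt112 was 0.136 ± 0.0149 in WT (SD, n = 4) and 0.229 ± 0.0188 in Dp1Tyb (SD, n = 5). The exact permutation test on that ratio, two-sided, gave p = 0.0079, with a background of 3.1%. Etf1, its substrate, had 4370 normalised counts in WT and 4629 in Dp1Tyb (0.08). Beside Setd4, the SET-domain enzymes Setd7 and Kmt5a had log2 fold changes of 0.15 and 0.03, again with an adjusted p of 1 by edgeR. Over the 11 ratios to a partner or paralog given here, all 11 had a higher mean in Dp1Tyb and 10 did not overlap. These ratios were added after the values of the single genes had been seen. Several ratios share a gene of the duplication, and each of those genes was already higher in Dp1Tyb. The partners and paralogs had log2 fold changes from -0.30 to 0.07. The counts and p-values of the ratios thus largely follow from the single-gene values and are not separate support. The backgrounds are over all genes tested, and the share among the other genes of the duplication was not taken.

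**Figure D5:**
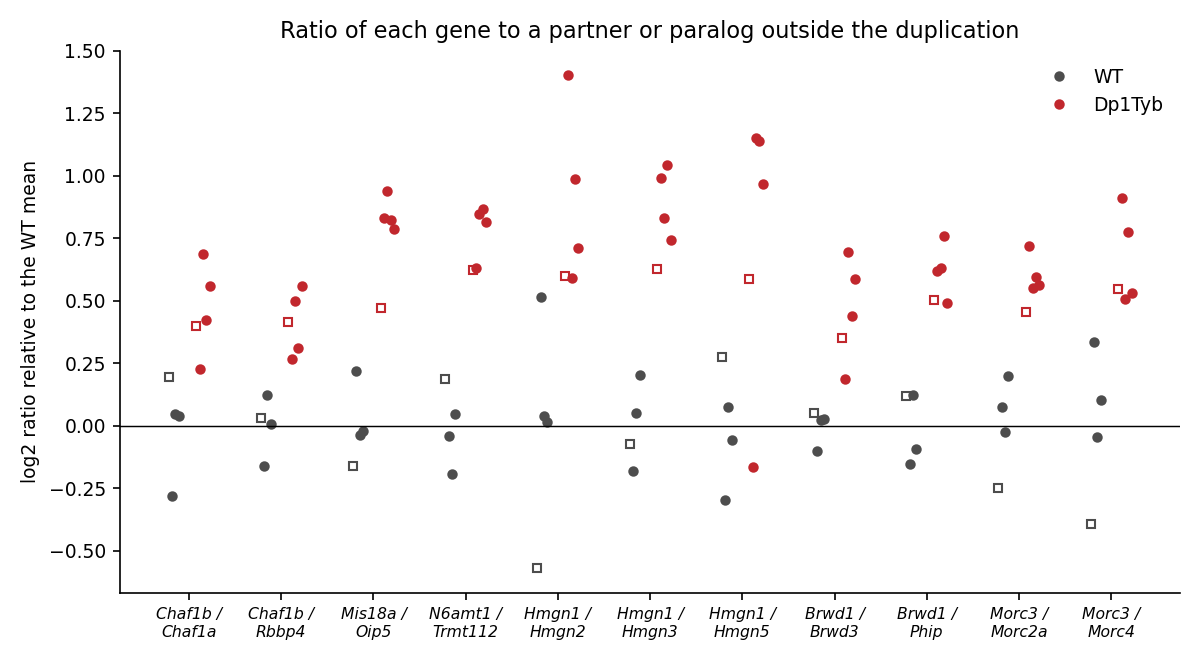
Ratio of each gene to a partner or paralog outside the duplication in each culture, as log2 of the ratio relative to the WT mean (vertical axis), with circles for set 2 and open squares for set 1. The genotypes are apart in 10 of 11 ratios, and overlap in Hmgn1 to Hmgn5.

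Chaf1b and Mis18a are used by dividing cells, so the cell cycle lists were set beside them. The 20 S phase genes had a median log2 fold change of -0.14 and the 20 genes of G2 and mitosis -0.20, with 0 called in either by edgeR or DESeq2 and 1 and 0 at an unadjusted p below 0.05. Mki67, a marker of proliferation, had 2472 normalised counts in WT and 2065 in Dp1Tyb (log2 fold change -0.26), and the replication helicase subunit Mcm2 1145 and 1105 (-0.05). Summed RPKM over the S phase list was 120 to 145 in WT and 94.2 to 134 in Dp1Tyb cultures, and over the G2 and mitosis list 139 to 171 and 95.7 to 169.8. The mean of the list medians was lower in Dp1Tyb by 0.13 in set 2 and by 0.09 in set 1 for S phase, while for G2 and mitosis the difference turned with the set, at -0.29 in set 2 and 0.16 in set 1. Dp1Tyb replicate 4, the culture lowest in Chaf1b among the 5, was also lowest of all 9 in both lists, with list medians of -0.40 and -0.62 on the log2 scale relative to the WT mean. Over the 9 cultures, each less the mean of its genotype, Chaf1b had Pearson's r = 0.74 and Spearman's rho = 0.42 with the S phase list, and r was -0.25 without WT replicate 2 and Dp1Tyb replicate 4, so that relation rests on those cultures. With the G2 and mitosis list r was 0.73 (rho = 0.65), and 0.65 without Dp1Tyb replicates 1 and 4. Mis18a had r = 0.40 (rho = 0.62) with the G2 and mitosis list, and 0.74 without the same 2 cultures. With the S phase list Mis18a had r = 0.08, and -0.28 without WT replicate 2 and Dp1Tyb replicate 4. Such shifts were not particular to Chaf1b and Mis18a. Without the same cultures, Hmgn1 with the S phase list went from -0.006 to -0.82, and Setd4 with the G2 and mitosis list from -0.29 to 0.49. Brwd1 with the S phase list moved only from 0.04 to 0.14. These are descriptions over cultures that share library depth and scaling, and the part of the cell cycle in the levels of Chaf1b and Mis18a was not tested.

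The nearest tested protein-coding genes on each side of these 7 were also in the duplication, and some lay far off. The gap was 1452356 bases from N6amt1 to Adamts5 and 757307 from Setd4 to Runx1. It was 219758 from Mis18a to Hunk and 178815 from Chaf1b to Sim2. Brwd1 and Hmgn1 neighbour each other, with Psmg1, a proteasome assembly chaperone, on the proximal side (log2 fold change 0.61, adjusted p = 0.034 by edgeR) and Wrb, part of the machinery that inserts tail-anchored proteins into membranes, on the distal side (0.64, adjusted p = 0.039 by edgeR). Setd4 lies between Runx1, a transcription factor of blood formation (0.21, interval -0.13 to 0.56, adjusted p = 1 by edgeR), and, 1789 bases away, Cbr1, a carbonyl reductase on the opposite strand, which was called with a log2 fold change of 0.52 (adjusted p = 0.039 by edgeR). Ltn1, a ligase of ribosome quality control, lies 7908 bases beyond N6amt1 and was called with 0.63 (adjusted p = 0.016 by edgeR), while on the other side Adamts5, a matrix protease, was at 0.64 with overlapping genotypes (interval 0.15 to 1.14, adjusted p = 1 by edgeR). Morc3 and Chaf1b neighbour each other, between Dop1b (0.44, adjusted p = 0.621) and Sim2, a transcription factor whose interval was wide (1.13, 0.08 to 2.19). Mis18a lies between Hunk (-0.12, -1.19 to 0.96), a kinase gene, and Urb1 (0.72, adjusted p = 0.256 by edgeR), a gene of ribosome assembly.

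The genes most like each of the 7 across the 9 cultures, each gene less the mean of its genotype and among 11227 genes at a mean of at least 1 RPKM, were found by Pearson's r, as a description. For Brwd1 they were Smarcc2, a subunit of the BAF remodelling complex, and Kat6b, a histone acetyltransferase (r = 0.991 each). For Chaf1b they were Mcm8, a helicase of DNA repair (0.940), and Arhgap19 (0.938). The gene most like Hmgn1 was Coro1b (0.966). They were, for Setd4, Nicn1 (0.986) and Kifc2 (0.970), for Morc3 Ap3b1 (0.959) and Def8 (0.938), for Mis18a Rtn4ip1 (0.921) and Ctc1 (0.909), and for N6amt1 Antxr2 (0.994) and Fuca2 (0.950). None of the genes named lies in the duplication. These are the top correlations among 11227 genes over only 9 cultures, where high values can arise by chance. No p was computed, and shared regulation was not tested.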

How the data were processed

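RNA-seq of 4 WT and 5 Dp1Tyb MEF cultures was used. The authors prepared stranded mRNA libraries, trimmed reads with Trim Galore, mapped them to GRCm38 with TopHat 2.0.12, discarded reads aligned to several places and counted the rest per Ensembl gene with htseq-count. The strand setting and the annotation release are not given in the sources used here. The deposited table holds counts without normalisation, and these alone were used. The authors' scaled counts and their DESeq2 comparison (mean, fold change, error, statistic and p-values) were not used. The duplication was delimited by Lipi and Zbtb21, both included (chr16:75540514-97962622), with gene names, positions and exon lengths from GENCODE M21, which matched 42548 of 43629 genes. Positions are on GRCm38.

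edgeR 4.0.16 in R 4.3.3 was fitted to all 9 cultures with TMM scaling, the filterByExpr filter and the two-sided quasi-likelihood test, with genotype as the only term and Benjamini-Hochberg adjustment over 14567 genes. The standard error was derived from the F statistic and the 95% interval from the t distribution of the fit. DESeq2 1.42.0 was an alternative. Code was tested on simulated counts. Single values were compared with exact permutation tests on normalised counts or log2 ratios, and log2 levels used a pseudocount of 1. Total counts were 24804539 to 30009361 per culture. The p-values set the difference between genotypes against the spread between cultures of separate embryos. The members and the lists were chosen with earlier results of these data known. Named genes were the 7 members, every gene of the chromatin and cell cycle lists that was called, a set of partners and paralogs, the nearest tested genes, and the 2 genes most alike in pattern, and results for some of them are not reported here. The 20 alternatives covered scaling, filters, tools, a stricter threshold, the set of cultures, a replicate block and the omission of each culture.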

Additional observations from a re-analysis of the deposited data

Results flagged for a closer look

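Of 60 groups of values, 1 gene in 1 genotype each, 6 held a culture farther from the others than Dixon's 95% critical value, and chance alone flags about 1 group in 20. Among the 7 genes, Chaf1b was low in WT replicate 2, at a normalised count of 232 with the next WT culture at 282. Morc3 was high in WT replicate 4, at 1276 with the next WT culture at 1135. Cenpa was high in WT replicate 3, at 605 with the next at 426. Dp1Tyb replicate 2, the culture with the highest muscle marker sum, was high in 3 partner genes. These were Hmgn5 at 431 with the next Dp1Tyb culture at 236, Etf1 at 5943 with the next at 4397, and Kmt5a at 2090 with the next at 1677. The explanation of these values was not tested.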

How the results depend on the processing

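Over the 7 genes and the 11 alternatives other than omissions of a culture, 77 calls were recomputed, those at the stricter threshold from the same fits, and no fold change changed sign. Of these calls, 63 kept their side of the threshold, 8 gained a call and 6 lost one. The cause of the changed calls was not tested. DESeq2 without its prior called Setd4 (log2 fold change 0.68), Mis18a (0.47) and N6amt1 (0.59), for 5 genes of the 7 and 34 of the other genes of the duplication, where edgeR called 20. With its prior it called the same 3 at 0.53, 0.42 and 0.51, again with 5 and 34. Without a filter on low counts, edgeR called 12 of the other genes of the duplication. At an adjusted p below 0.01, Hmgn1 (0.63) and Morc3 (0.57) were not called, leaving 0 of the 7 and 2 of the others. In set 2 alone Hmgn1 (0.64) and Morc3 (0.59) were not called, leaving 0 and 1. Leaving out each culture in turn gave log2 fold changes from 0.61 to 0.66 for Hmgn1 and from 0.55 to 0.63 for Morc3, each called in 5 of 9 omissions, with 0 to 2 of the 7 genes and 2 to 21 of the other genes of the duplication called. The others fell to 2 without WT replicate 2, WT replicate 3 or Dp1Tyb replicate 5, to 6 without WT replicate 4 or Dp1Tyb replicate 4, and to 10 without WT replicate 1, Dp1Tyb replicate 1 or Dp1Tyb replicate 3. The chromatin lists gave 0 calls under every setting run.

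The labels tie no litter or day to a replicate number, though both cultures numbered 1 are in set 1. Cultures with the same number had deviations from their genotype means that correlated at 0.030 to 0.732 (mean 0.35, against -0.09 for cultures with different numbers). Because 1 of the 4 pairs was near 0 and 1 of 4 WT cultures correlated best with its own number, the numbers were not taken as pairs. With the replicate block in edgeR, Hmgn1 (0.62) and Morc3 (0.57) had an adjusted p of 0.084. With it 0 of the 7 and 0 of the other genes of the duplication were called. The block left out Dp1Tyb replicate 5, which has no WT culture of its number. Omitting that culture without a block gave an adjusted p by edgeR of 0.056 for Hmgn1 and 0.070 for Morc3. The effects of the block and of the omission were not separated. With the block in DESeq2, chosen after seeing the data, Brwd1 (0.53) and N6amt1 (0.57) were called in addition to Hmgn1 and Morc3, for 4 of the 7 and 45 of the others. Setd4 had the lowest level of the 7 genes, at about 110.2 normalised counts per WT culture, and the part of depth in its result was not tested.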
